A study of Mus musculus with 18 samples.

Results

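Livers of mice fed quercetin at either of 2 doses were compared with livers of mice on the same diet without it, and genes that moved the same way at both doses were followed. The comparison took all 18 arrays of the series: 6 from mice on the control diet, 6 from mice on 0.05% quercetin and 6 from mice on 1% quercetin. The 12 quercetin arrays were set against the 6 controls with equal weight for each dose. All were male C57BL/6J mice (the strain field of the labels spells it C56BL/6J) with no transgene or deletion. They were bought at 4 weeks of age and kept for 1 week on a standard diet, then fed AIN93G, with or without quercetin, for 20 weeks. Each diet had 12 mice housed 3 per cage, and each array held liver RNA of 1 mouse on an Affymetrix 3-prime expression array. Mice of a cage shared a diet, the cage of each mouse is not in the labels, and cage and diet therefore cannot be told apart. The adjusted p-values measure the spread among these mice.

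Quercetin is a plant flavonol that the gut and liver conjugate with glucuronate, sulfate and methyl groups. Polyphenols of this kind are studied in liver chiefly for NRF2, the transcription factor that turns on antioxidant and detoxifying enzymes, and for PPARA, the nuclear receptor that turns on fatty acid oxidation. Lipogenesis, driven by SREBP1c and the carbohydrate sensor ChREBP, and the circadian clock are other programmes that set much of the day-to-day variation of liver transcripts.

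Values are log2 of the deposited intensity plus 16, with each array shifted to a common median, and changes are differences on that scale, which understates the change of dim genes. The median of the 12885 tested genes differed by up to 0.53 between arrays before the shift, and any 2 arrays correlated at 0.960 to 0.989. The array of 1% quercetin replicate 1 had the lowest median correlation with the others, 0.967. Control replicate 3 stood apart in PPARA targets and sex-biased genes. The defining hepatocyte gene Alb, which encodes albumin, lay between 13.04 and 13.69 in all 18 livers. Eif2s3y, a Y-linked gene, lay between 8.90 and 9.74 in every mouse.

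A single gene passed the test across the whole table. Tead1, a transcription factor that binds DNA for the YAP and TAZ coactivators of the Hippo pathway, rose at both doses and was the only gene past a Benjamini-Hochberg adjusted p of 0.05 in limma (0.00776% of genes tested). In controls it ran from 6.42 to 6.85 with a median of 6.57. At 0.05% quercetin it ran from 6.89 to 7.25 with a median of 7.04, and at 1% from 7.06 to 7.46 with a median of 7.17. All 12 quercetin mice lay above all 6 controls. Group means were 6.59 ± 0.14, 7.05 ± 0.12 and 7.20 ± 0.15 (SD, n = 6 each). The change for both doses together was 0.54 ± 0.08 (SE; limma, adjusted p = 0.0173), a fold of 1.45. Against control the change was 0.47 at 0.05% (adjusted p = 0.302) and 0.61 at 1% (adjusted p = 0.0225).

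The call for Tead1 was not stable to the processing or to the controls used, though its direction was the same in every setting run. The adjusted p was 0.457 on values as deposited, 0.0767 when arrays were shifted to the median of all probe sets, 0.0872 without a filter on dim genes and 0.508 for the mean of its probe sets. Leaving out control replicate 1, 2, 4, 5 or 6 gave 0.1002, 0.0915, 0.102, 0.0705 and 0.0707. Leaving out control replicate 3 gave 0.00551, and each of the 12 quercetin mice could be left out with the call kept. The array has another Tead1 probe set, far dimmer at a mean of 4.73, and its change was 0.05 ± 0.14.

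**Figure D1:**
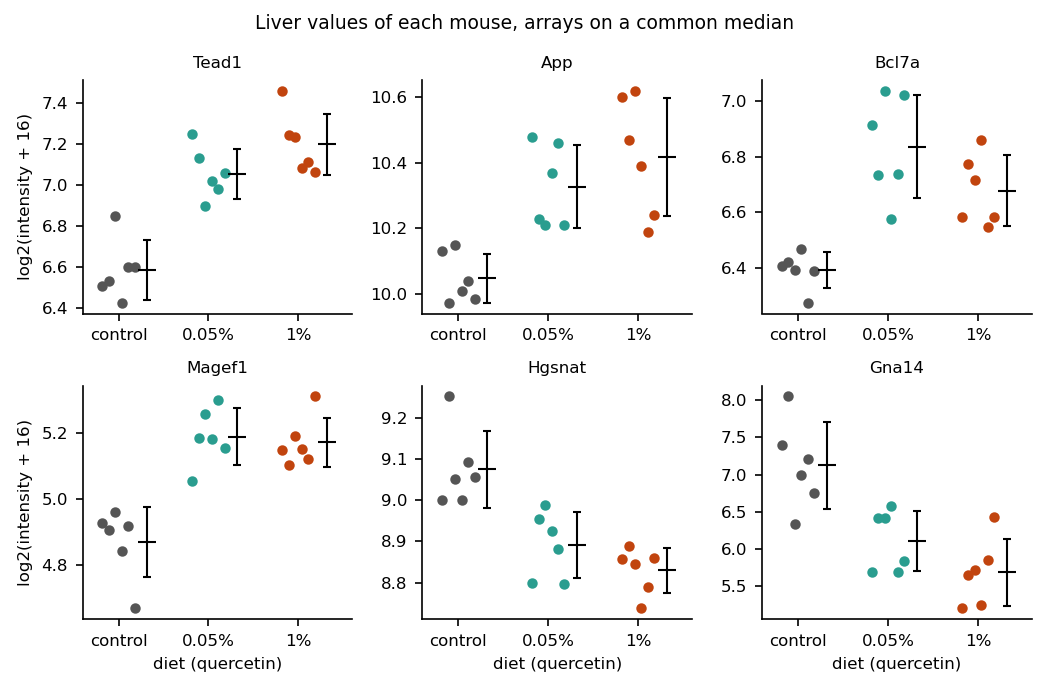
Log2(intensity + 16) of 6 genes in each mouse by diet, with points for mice and the black bar for mean ± SD of 6 mice; vertical axes differ between panels and do not start at 0. Tead1, App, Bcl7a and Magef1 are higher in all 12 quercetin mice than in any control and Hgsnat is lower, while Gna14 overlaps between diets.

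Complete separation of the diets was rare. Besides Tead1, App, Bcl7a and Magef1 were higher in all 12 quercetin mice than in any of the 6 controls, and Hgsnat was lower in all 12. That is 4 genes above (0.031% of those tested) and 1 below (0.00776%). No gene among these but Tead1 passed the adjusted threshold, so their values stand as description.

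App, the amyloid precursor protein gene, ran from 9.97 to 10.15 in controls (median 10.03), from 10.21 to 10.48 at 0.05% (median 10.30) and from 10.19 to 10.62 at 1% (median 10.43). The nearest mice of the diets were 10.15 and 10.19, so the gap between the groups was narrow. Its change was 0.32 ± 0.08 (limma, adjusted p = 0.447), and its other probe set gave 0.38 ± 0.13.

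Bcl7a encodes a subunit of the BAF chromatin remodelling complex. It ran from 6.27 to 6.47 in controls (median 6.399), from 6.57 to 7.04 at 0.05% (median 6.82) and from 6.55 to 6.86 at 1% (median 6.65). The lower dose thus had the higher median, and the change was 0.36 ± 0.08 (adjusted p = 0.244). Its other probe set, at -0.03 ± 0.11, did not share the difference.

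Magef1, of the MAGE family of ubiquitin ligase regulators, was dim, at 4.67 to 4.96 in controls (median 4.91), 5.05 to 5.30 at 0.05% (median 5.18) and 5.10 to 5.31 at 1% (median 5.15). Both doses lay at the same level, and the change was 0.31 ± 0.06 (adjusted p = 0.244). Hgsnat, an acetyltransferase that lysosomes need to degrade heparan sulfate, was outside the rule for named genes and was picked after its values were seen. Its means were 9.08 ± 0.09 in controls, 8.89 ± 0.08 at 0.05% and 8.83 ± 0.06 at 1%, a change of -0.22 ± 0.06 (adjusted p = 0.559).

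The change with the lowest adjusted p among genes that were lower was that of Gna14, a G protein alpha subunit of the Gq family that couples receptors to phospholipase C. Controls ran from 6.34 to 8.06 (median 7.10), 0.05% mice from 5.69 to 6.57 (median 6.13) and 1% mice from 5.20 to 6.43 (median 5.68). Of the 12 quercetin mice, 8 lay below every control, and control replicate 3 was the control that overlapped. The change was -1.23 ± 0.22 (adjusted p = 0.164), with -1.02 at 0.05% and -1.44 at 1%. Its 2 other probe sets gave -0.92 ± 0.18 and -0.69 ± 0.20. Without control replicate 3 the change was -1.39 and the adjusted p 0.0233. The same omission also brought Frat1 to 0.84 (0.0233) and Il1b to -0.69 (0.0401), so 4 genes passed in place of 1.

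**Figure D2:**
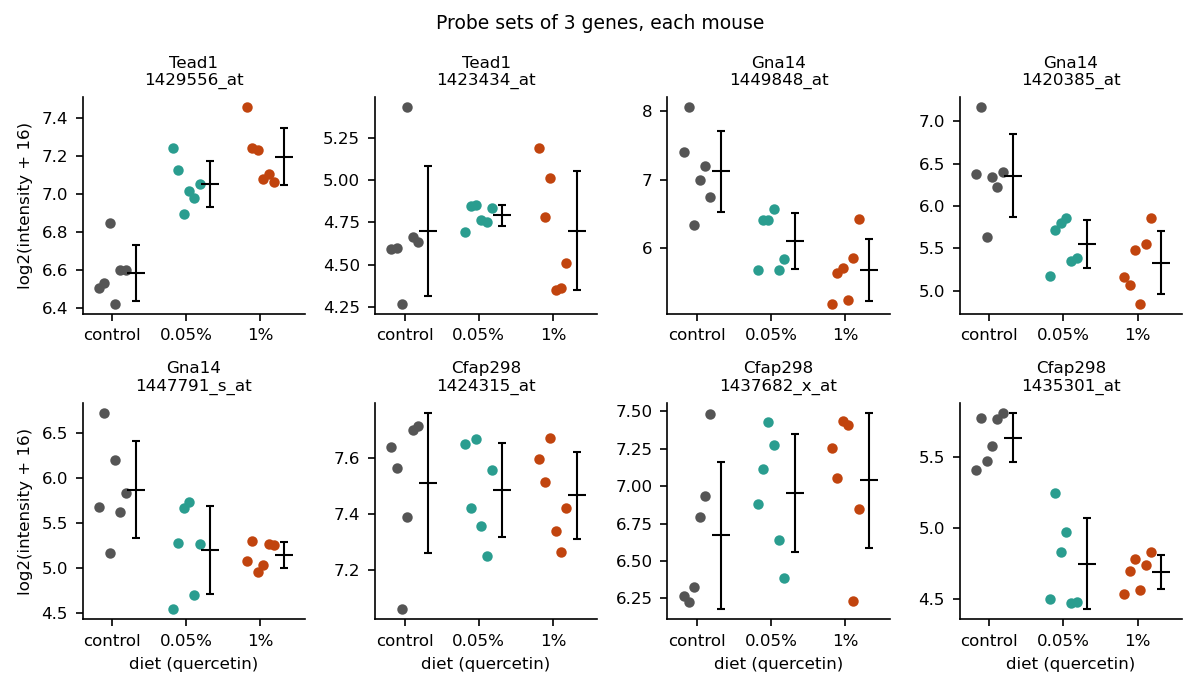
Log2(intensity + 16) of every tested probe set of Tead1, Gna14 and Cfap298 in each mouse by diet, with the black bar for mean ± SD of 6 mice; vertical axes differ between panels. The 3 Gna14 probe sets are all lower on quercetin, while for Tead1 and Cfap298 the probe sets of the gene differ from each other.

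Among the genes ranked by p, 12 higher and 12 lower ones were taken whether called or not, and all had the same sign at both doses by that rule. The higher set includes Zdhhc2, a protein palmitoyltransferase, Frat1, which binds the kinase GSK3 and promotes Wnt signalling, and Csad, the decarboxylase that makes hypotaurine on the way to taurine. Net1, a guanine nucleotide exchange factor of RhoA, Pigl, an enzyme of GPI anchor synthesis, Wdr81, an endosomal protein, and the unnamed transcripts C030034I22Rik and 9930012K11Rik complete it with the 4 genes described. Apart from Tead1 none was called, with adjusted p from 0.244 to 0.447.

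Zdhhc2 ran from 5.52 to 6.15 in controls (median 5.86), from 6.04 to 6.59 at 0.05% (median 6.25) and from 6.26 to 6.93 at 1% (median 6.59). All 6 mice at 1% but only 3 at 0.05% lay above every control. The change was 0.61 ± 0.12 (adjusted p = 0.244), and 0.51 ± 0.17 in its other probe set. Csad was the member with the greatest size, 0.81 ± 0.20 (adjusted p = 0.447). It ran from 10.08 to 11.45 in controls, 11.07 to 12.01 at 0.05% and 11.24 to 12.09 at 1%, with 7 of 12 quercetin mice above all controls.

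Frat1 had a difference of 0.70 ± 0.15 and was dim, with a control median of 4.63 against 5.25 at 0.05% and 5.44 at 1%. Net1 had a difference of 0.48 at each dose, and 11 of 12 quercetin mice lay above all controls. Pigl had a difference of 0.43 ± 0.10, but its dimmer probe set gave -0.28 ± 0.28. Wdr81 had a difference of 0.37 ± 0.08, C030034I22Rik of 0.32 ± 0.07 and 9930012K11Rik of 0.50 ± 0.12.

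Among the 12 lower genes, Lpin1, a phosphatidate phosphatase of triglyceride synthesis that also acts as a coactivator of PPARA, was next in size to Gna14. It ran from 9.26 to 10.79 in controls (median 10.45), from 8.54 to 9.89 at 0.05% (median 9.12) and from 7.91 to 10.13 at 1% (median 8.89). The diets overlapped, with 9 of 12 quercetin mice below every control. The change was -1.22 ± 0.30 (adjusted p = 0.447), and -1.08 ± 0.30 in its other probe set.

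Per1, a repressor of the circadian clock, had medians of 6.59 in controls, 5.78 at 0.05% and 6.00 at 1%, a change of -0.77 ± 0.20 (adjusted p = 0.536). Dct, an enzyme of melanin synthesis, had a difference of -0.97 ± 0.24, with all 6 mice at 1% but 4 at 0.05% below every control. Ap3m1, a subunit of the AP-3 adaptor that sorts cargo to lysosomes, had a difference of -0.43 ± 0.09. Its 3 other probe sets gave -0.43, -0.24 and -0.37.

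Pls1, an actin-bundling protein, had a difference of -0.70 ± 0.17, and Slc8a1, the sodium-calcium exchanger, of -0.59 ± 0.16. Dnm3, a dynamin, had a difference of -0.48 ± 0.11, with -0.10 ± 0.10 in its other probe set. The rest were smaller: Thegl at -0.43 ± 0.09, 9530057J20Rik at -0.37 ± 0.10, Wbp1 at -0.28 ± 0.07 and Fbxw4, an F-box protein, at -0.28 ± 0.07. Adjusted p for the 12 lower genes lay between 0.164 and 0.536. Of these 24 genes, 9 had further tested probe sets, and in 7 of the 9 every probe set had the same sign.

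**Figure D3:**
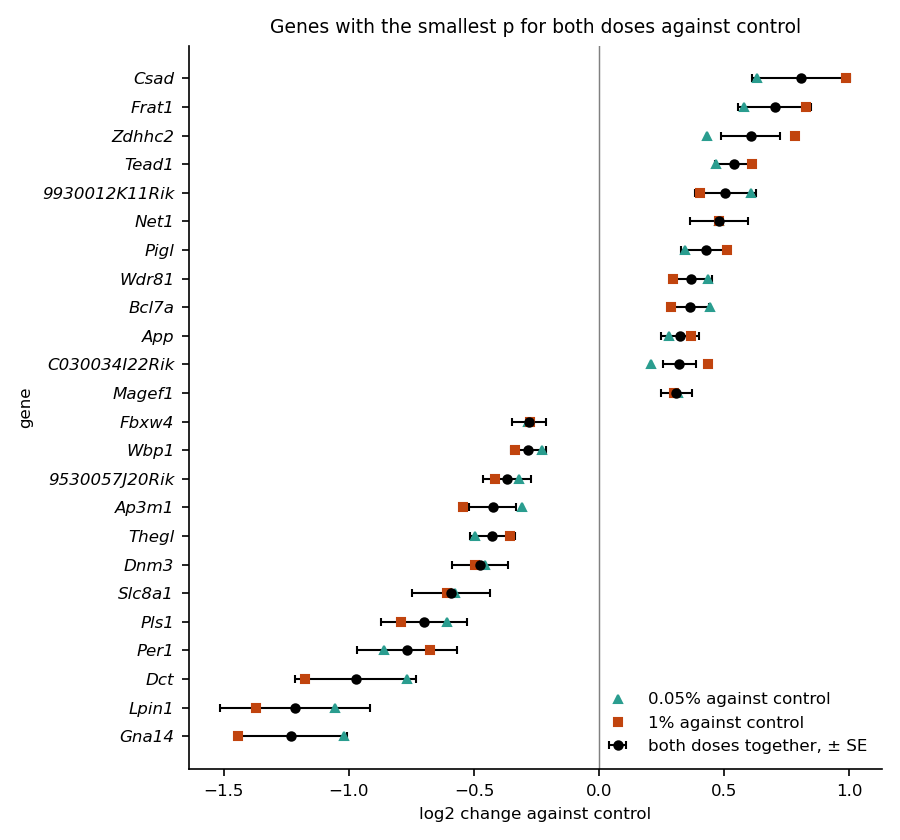
Log2 change against control of the 12 higher and 12 lower genes with the smallest p, for both doses together (black, ± SE), 0.05% (triangles) and 1% (squares). Sizes run from -1.23 for Gna14 to 0.81 for Csad, and the dose estimates lie on the same side of 0 for every gene because the rule for choosing them asked for it.

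Across the whole table, 8336 of 12885 genes (64.7%) had the same sign at both doses, 3808 higher and 4528 lower. The doses share the 6 controls, and genes with no change and equal spread would then have the same sign in 66.7% of cases, so the share is no sign of agreement between the doses. At an unadjusted p under 0.05 for both doses together there were 847 genes, where 644 would be the 0.05 share of the table. Of these, 842 had the same sign at both doses: 389 higher (3.02% of genes tested) and 453 lower (3.52%). Higher genes made up 46.2% of the 842. On values as deposited, without the median shift, the count was 464 and higher genes made up 28.9% of it. Of the 842, 168 were also under 0.05 at each dose taken alone, 87 higher and 81 lower.

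The doses themselves were compared with each other to see where the size differed. No gene passed in limma for 1% against 0.05% (0% called, smallest adjusted p = 0.0885, 1098 genes at an unadjusted p under 0.05). For 0.05% against control none passed (0% called, smallest adjusted p = 0.177, 656 at an unadjusted p under 0.05). For 1% against control only Tead1 passed (0.00776%). Tead1 itself differed between doses by 0.14 ± 0.09 (adjusted p = 0.693 for 1% against 0.05%).

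Bcl6 and Resf1, named after their values were seen, had the smallest p for the difference between doses and had opposite signs at the 2 doses. Bcl6, a transcriptional repressor, was 0.90 above control at 0.05% and -0.52 at 1%. Resf1, a regulator of retroelement silencing, was -1.02 at 0.05% and 0.19 at 1%. Each had an adjusted p of 0.0885 for the difference between doses. Neither belongs to the genes that move the same way.

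Sets of genes with known roles in liver are described by how many of their tested members were higher or lower, beside all 12885 genes, of which 46.7% were higher with a median change of -0.01. Tead1 is in none of these sets, and no member of any of them passed the adjusted threshold. The counts at an unadjusted p under 0.05 with the same sign at both doses are therefore read against the 3.02% of genes that were higher and 3.52% that were lower.

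NRF2 targets were mostly higher on quercetin. Of 24 tested, 21 were higher and 3 lower, with a median change of 0.31 (0.23 at 0.05%, 0.40 at 1%), and 8 of them, each with the same sign at both doses, had an unadjusted p below 0.05. These were Osgin1, Blvrb, Gsta4, Abcc4, Gsta2, Ephx1, Aox1 and Cbr1, which are mainly glutathione transferases and other detoxifying enzymes and an efflux pump. Osgin1, an oxidative stress-induced growth inhibitor, ran from 9.40 to 10.34 in controls (median 9.86), from 9.46 to 11.05 at 0.05% (median 10.38) and from 10.23 to 12.29 at 1% (median 11.05). The diets overlapped at the lower dose, with 3 of 6 mice above every control, against 5 of 6 at the higher dose. The change was 0.81 ± 0.27 (adjusted p = 0.704), 0.41 at 0.05% and 1.21 at 1%.

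Gsta4, a glutathione transferase that clears 4-hydroxynonenal, had a difference of 0.46 ± 0.18, and Blvrb, biliverdin reductase B, of 0.29 ± 0.11 (adjusted p = 0.723 for each). The best known NRF2 genes were less distinct. Nqo1, a quinone reductase, had a change of 0.15 ± 0.14, and Gclc, the catalytic subunit of the rate-limiting step of glutathione synthesis, 0.45 ± 0.32. Without control replicate 3 Nqo1 was at 0.26 (adjusted p = 0.648), and without 1% replicate 1 Gclc was at 0.27, with 0.06 in place of 0.41 for the higher dose. Hmox1, haem oxygenase, lay between 7.20 and 7.64 in 5 of the mice at 1% and at 10.95 in replicate 1. Its change was 0.34 ± 0.40 with that mouse and 0.04 without it.

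The mean of the NRF2 set in each mouse ran from -0.20 to 0.35 around the control mean in controls, from -0.06 to 0.51 at 0.05% and from 0.06 to 1.28 at 1%. Replicate 1 at 1% supplied the highest value, and the other 5 reached 0.32 at most. Without it the set had 19 higher and 5 lower members, a median of 0.22 and 5 members under 0.05. Other antioxidant enzymes measured in these livers, catalase (Cat, -0.09 ± 0.07) and superoxide dismutase 1 (Sod1, -0.04 ± 0.06, but 0.04 after quantile normalization), were close to control.

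PPARA targets and genes of fatty acid oxidation were likewise mostly higher. Of 39 tested, 36 were higher, 35 with the same sign at both doses, and the median change was 0.25 (0.16 at 0.05%, 0.23 at 1%). An unadjusted p under 0.05 was reached by 11, all higher: Acot1, Acot2 and Acot3, acyl-CoA thioesterases, Retsat, Cyp4a14, Ppara, Plin2, Eci2, Ech1, Angptl4 and Fgf21. Ppara counts by sign only, with changes of 0.78 at 0.05% and 0.01 at 1%. It was higher than every control in 6 of 6 mice at 0.05% and in 0 of 6 at 1%, and its other probe sets gave 0.09 and 0.14 for both doses together.

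Acot2, a mitochondrial thioesterase, ran from 5.84 to 8.04 in controls (median 6.60), from 6.71 to 8.09 at 0.05% (median 7.84) and from 7.46 to 8.45 at 1% (median 7.74). The range of controls held 10 of the 12 quercetin mice, and control replicate 3 held the highest control value. The change was 0.97 ± 0.26 (adjusted p = 0.543), against 0.07 ± 0.15 in its dim probe set. Acot1, its cytosolic relative, had a difference of 1.10 ± 0.35 (adjusted p = 0.611), and probes of these near-identical paralogs may bind either transcript.

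Cyp4a14, a fatty acid omega-hydroxylase, had medians of 9.70 in controls, 12.14 at 0.05% and 12.07 at 1%. Its controls ran up to 12.44, in control replicate 3, and the change was 1.67 ± 0.61 (adjusted p = 0.723). Without that control it was 2.16 (adjusted p = 0.345). Retsat, which saturates retinol, had a difference of 0.53 ± 0.15 and of 0.80 ± 0.20 in its other probe set. Cpt1a, the gatekeeper of mitochondrial fatty acid import, had a change of 0.13 ± 0.10, and of 0.05 without control replicate 1.

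In each mouse, the PPARA set mean ran from -0.26 to 0.73 in controls, from -0.24 to 0.73 at 0.05% and from -0.01 to 0.68 at 1%. Control replicate 3 held the 0.73 and the other 5 controls reached -0.04 at most. Without control replicate 3, 25 members were under 0.05 in place of 11 and the median was 0.31. Without 1% replicate 1, the count was 8. Adipocyte markers, of which 4 of 10 listed could be tested, had a median change of 0.26 and reached 1.499 in 1% replicate 1, with other mice at that dose at 0.35 or less. Their part in the result was not tested.

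**Figure D4:**
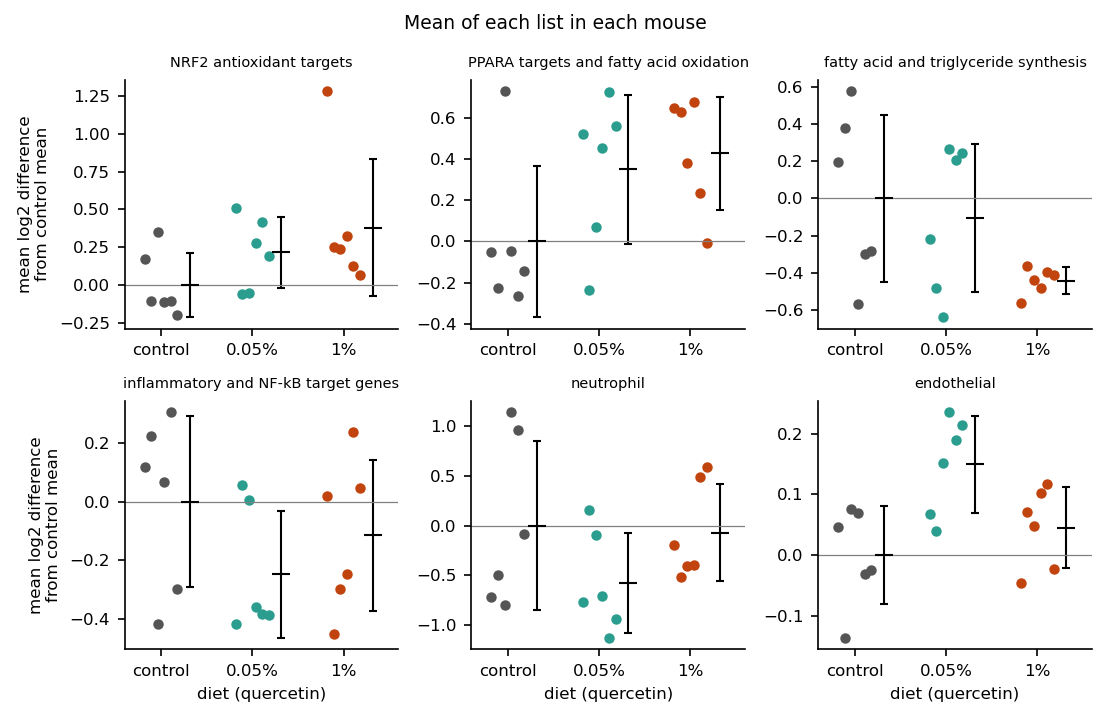
Mean log2 difference from the control mean over the tested members of 6 gene sets in each mouse, with the black bar for mean ± SD of 6 mice. One mouse at 1% reaches 1.28 for NRF2 targets and one control 0.73 for PPARA targets, and all 6 mice at 1% lie between -0.56 and -0.36 for lipid synthesis, inside the range of the controls.

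Fatty acid and triglyceride synthesis genes were mostly lower, with the larger median at the higher dose. Of 31 tested, 24 were lower, with a median of -0.21 for both doses together, -0.07 at 0.05% and -0.36 at 1%. Those under 0.05 were Lpin1, Thrsp, Dgat2, Elovl6, Fasn, Pnpla3 and Agpat2, 7 in all. Each was lower at both doses in the probe set that stood for it. The test of the difference between doses was not passed by any of them.

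Thrsp, which promotes lipogenesis, ran from 10.43 to 13.30 in controls (median 12.18), from 10.67 to 12.25 at 0.05% (median 11.63) and from 9.25 to 11.36 at 1% (median 10.48). No mouse at 0.05% lay below the controls, and 3 of 6 at 1% did. The change was -1.14 ± 0.38 (adjusted p = 0.704), -0.58 at 0.05% and -1.69 at 1%. Its next brightest probe set gave -1.42 ± 0.50, and its dimmest -0.56 ± 0.44 with 0.10 at 0.05%.

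Fasn, fatty acid synthase, had medians of 11.44, 11.25 and 9.89 from control to 1%, and had a difference of -0.38 at 0.05% and -1.37 at 1%. Dgat2, which completes triglyceride synthesis, had a difference of -0.27 ± 0.10. Its other, dimmer probe set gave -0.17 ± 0.17, with 0.02 at 0.05%. Srebf1, which encodes SREBP1, had a difference of -0.55 ± 0.45, and Scd1, a desaturase that was bright in every liver, of -0.09 ± 0.07. The other, dimmer probe set of Scd1 gave -0.35 ± 0.245, with 0.11 at 0.05% and -0.82 at 1%. Without control replicate 2 the difference of Srebf1 was -0.17.

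The controls, and the mice at 0.05%, divided into 2 levels in this set. The set mean was 0.19, 0.38 and 0.58 in controls 1 to 3, against -0.57, -0.30 and -0.28 in controls 4 to 6. At 0.05% the order was the other way, with -0.22, -0.48 and -0.64 in replicates 1 to 3 and 0.27, 0.21 and 0.25 in replicates 4 to 6, while the 1% mice lay together at -0.56 to -0.36. Srebf1 was at 11.66, 12.24 and 11.27 in controls 1 to 3 and at 8.97, 8.91 and 9.16 in the others. Fasn, Thrsp, Dgat2 and Scd1 were also higher in each of controls 1 to 3 than in any of controls 4 to 6. Outside this set the same held for Tat, Ppp1r3b, Ppp1r3c, Noct, Ddit4, Mvd, Slco1b2, Masp1, Serpind1, Net1, Gsta4, Ccna2 and Cyp3a11. Pck1, Wdr81 and Sirt1 were lower in each of controls 1 to 3 than in any of controls 4 to 6. The labels tie no batch to these mice. Array medians of deposited intensity also divided. They were 15.68 to 17.23 in controls 1 to 3 and 17.46 to 19.8 in controls 4 to 6. At 0.05% they were 14.68 to 16.29 in replicates 1 to 3 and 19.52 to 21.92 in replicates 4 to 6. At 1% the ranges overlapped, at 14.17 to 17.75 and 14.69 to 21.08. At 0.05%, genes outside this set, such as Hspa8, Sel1l and Rorb, also divided between replicates 1 to 3 and 4 to 6. The part of the split in the changes of this set and of these genes was not tested. Without control replicate 3, 11 members were higher and 20 lower, 3 of the lower ones were under 0.05, and the median was -0.10 (0.02 at 0.05%, -0.31 at 1%). Without 1% replicate 1 the count under 0.05 was 4.

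Sterol and bile acid genes had medians nearer to 0. Cholesterol synthesis genes had 6 higher and 14 lower of 20, with a median of -0.09, and bile acid genes 6 higher and 15 lower of 21, with -0.07. Mvd, mevalonate diphosphate decarboxylase, had a difference of -0.69 ± 0.26, while its other probe set, of similar brightness, gave -0.26 ± 0.17. Slco1b2, a hepatic uptake transporter, had a difference of -0.24 ± 0.08 at its brightest probe set, but its other 4 ranged from 0.00 to 0.23. Cyp7a1, which starts the classical route of bile acid synthesis, had a difference of -0.01 ± 0.33, with a sign that turned in several settings.

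Gluconeogenic and fasting-response genes had 18 lower of 21 and a median of -0.18 (-0.09 at 0.05%, -0.20 at 1%), with 4 under 0.05: Lpin1, Trib1, Tat and Got1. Tat, tyrosine aminotransferase, had medians of 12.15 in controls, 11.74 at 0.05% and 10.80 at 1% and had a difference of -0.69 ± 0.26 (adjusted p = 0.723). Trib1, a pseudokinase that restrains lipogenesis, had a difference of -0.41 ± 0.15, though 2 of 12 quercetin mice lay below every control. Pck1, the committed step of gluconeogenesis, was at 9.997 in 1% replicate 1 and between 12.19 and 12.54 in the other 5 mice of that diet, and had a difference of -0.25 ± 0.28. Without that mouse the difference was -0.05, with 0.03 in place of -0.36 for the higher dose.

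Glycogen genes had 13 lower of 16, yet their member with the smallest p was higher. Ppp1r3c, which targets protein phosphatase 1 to glycogen, ran from 8.27 to 11.23 in controls (median 9.39), from 10.88 to 11.46 at 0.05% (median 11.25) and from 9.06 to 11.27 at 1% (median 10.59). The 0.05% mice were tightly grouped near the top of the control range. The change was 1.08 ± 0.37 (adjusted p = 0.711), and 0.83 ± 0.25 in its other probe set. Its relative Ppp1r3b had a difference of -0.64 ± 0.30, and Stbd1, which tethers glycogen for lysosomal breakdown, of -0.38 ± 0.14.

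Enzymes that handle foreign compounds showed little shift. Targets of the receptors AHR, CAR and PXR split into 10 higher and 11 lower of 21, and the sign of their median, -0.02, turned in 7 of 30 settings. Among the marker enzymes of these receptors, Cyp1a1 (-0.02 ± 0.14), Cyp1a2 (0.04 ± 0.14) and Cyp3a11 (0.05 ± 0.08) lay near control. Cyp1a1 and Cyp2b10 were dim, at means of 4.985 and 4.765, where the scale used here understates change. Cyp2b10 had a difference of 0.16 ± 0.28, but control replicate 3 was at 6.25 where the other controls were at 4.09 to 4.82. Without that control the difference was 0.48 (adjusted p = 0.603), 0.58 at 0.05% and 0.37 at 1%. Gadd45b, a stress-response gene, was the member with the smallest p at 1.15 ± 0.39, with 9 of 12 quercetin mice above every control. Its other probe sets gave 0.73 ± 0.35 and 0.05 ± 0.15.

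Enzyme families that conjugate quercetin were mostly lower. Of 17 glucuronosyltransferases and sulfotransferases, 4 were higher and 13 lower, with a median of -0.10 and 3 under 0.05, all lower. These were Sult1d1 (-0.45 ± 0.15, and -0.46 ± 0.14 in its other probe set), Ugt2b1 (-0.27 ± 0.09) and Sult5a1 (-0.38 ± 0.16). Ugt2b1 and Sult5a1 are also in the set of male-biased liver genes described below.

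Respiratory chain and chaperone genes leaned lower by small amounts. Of 62 oxidative phosphorylation genes, 54 were lower with a median of -0.06, including Ndufc2 (-0.15 ± 0.06), Atp5h (-0.13 ± 0.05) and Ndufs8 (-0.22 ± 0.10). Their other probe sets gave smaller changes: -0.08, -0.06 and 0.09 for Ndufc2, -0.004 for Atp5h and -0.14 to -0.03 for Ndufs8. Unfolded protein response genes had 25 lower of 30 and a median of -0.17. Atf4, the transcription factor of the integrated stress response, was at -0.24 ± 0.10, and at -0.17 in its other probe set. Sel1l, of endoplasmic reticulum degradation, was at -0.36 ± 0.16, and its other probe sets gave -0.06, -0.34, -0.10 and -0.05. Cytosolic heat shock chaperones had 19 lower of 20, but only 13 at both doses, and none was under 0.05. Their median was -0.17 (-0.26 at 0.05%, -0.07 at 1%). Hspa8, the constitutive chaperone, was at -0.37 ± 0.20. After quantile normalization the median of the oxidative phosphorylation genes was -0.01, against -0.0002 for all genes in that setting. The size of their lean thus depends on the scaling.

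Clock genes were not uniform: 9 were higher and 12 lower of 21, and the 4 under 0.05 were all lower. Besides Per1 these were Per2, Rorb and Noct, a gene with a strong daily rhythm. Noct ran from 6.99 to 9.87 in controls (median 8.04), from 6.04 to 8.14 at 0.05% (median 6.99) and from 6.06 to 8.25 at 1% (median 7.21). The diets overlapped widely, and the change was -1.19 ± 0.40 (adjusted p = 0.704). The hour at which each mouse was killed is not in the labels.

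Immediate early genes and feedback inhibitors of the EGF receptor had 20 lower of 32 and 4 under 0.05, all lower: Errfi1, Ddit4, Btg2 and Plk3. Errfi1, an inhibitor of the EGF receptor, was bright and tight in controls, from 13.03 to 13.20 (median 13.10). It ran from 11.81 to 12.86 at 0.05% (median 12.70) and from 12.59 to 13.04 at 1% (median 13). Of 12 quercetin mice 11 lay below every control, by little at 1%. The change was -0.36 ± 0.12 (adjusted p = 0.711), -0.54 at 0.05% and -0.17 at 1%. Ddit4, an inhibitor of mTORC1, had a difference of -0.66 ± 0.23, and Btg2, an antiproliferative gene, of -0.63 ± 0.24.

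Short promoter stretches are shown for 5 genes described here whose windows hold a motif of a signal that these sets stand for, to show what the start-site regions of genes on either side of the comparison look like. Windows are 300 bases long, mostly upstream of the annotated start of each gene in RefSeq, build GRCm38.p6, and 65 of the 87 named genes matched 1 or more of them. Each line reads 5′ to 3′ on the strand of the gene, with the match in capitals.
Per1 (E-box, chr11:69098758-69098813, plus strand): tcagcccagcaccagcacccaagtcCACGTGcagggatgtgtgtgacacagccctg
Ppp1r3c (E-box, chr19:36736678-36736733, minus strand): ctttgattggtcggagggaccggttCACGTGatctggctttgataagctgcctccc
Errfi1 (cAMP response element, chr4:150854994-150855051, plus strand): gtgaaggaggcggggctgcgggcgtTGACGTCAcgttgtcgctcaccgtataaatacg
Btg2 (cAMP response element, chr1:134079289-134079346, minus strand): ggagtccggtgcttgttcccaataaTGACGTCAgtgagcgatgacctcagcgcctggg
App (antioxidant response element core, chr16:85173716-85173774, minus strand): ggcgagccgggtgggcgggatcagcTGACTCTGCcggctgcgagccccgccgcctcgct

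The E-box searched was CACGTG, bound by the clock activators CLOCK and BMAL1 among others, the cAMP response element TGACGTCA and the antioxidant response element core TGACNNNGC, each on both strands. Of 32544 windows in the table, 7.17% hold the E-box, 1.8% the cAMP response element and 12.4% the antioxidant core. Of the 78 windows of the 65 named genes, 8 hold the E-box, 2 the cAMP response element and 7 the antioxidant core. A PPAR direct repeat was also searched, and 0.0399% of all windows and 0 of the 78 hold it. With the E-box, Per1 and Tnfaip3 were lower and Ppp1r3c, Wdr81, Net1, Gadd45b, Gnai1 and Sirt1 higher. With the cAMP response element, Errfi1 and Btg2 were both lower. The antioxidant core was found on both sides of the comparison, with App, Frat1, C030034I22Rik and Sirt1 higher and Per1, Serpind1 and Sod1 lower (Sod1 higher after quantile normalization). Per1 holds it at 2 places, 1 of them inside the stretch shown, where it is left in lower case. A match is a description of the letters and not of binding.

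Inflammatory genes were lower on average, and so were markers of neutrophils. Of 22 inflammatory and NF-kB target genes, 17 were lower, with a median of -0.16 and 4 under 0.05, all lower. Without control replicate 5 the median was -0.07. Il1b, interleukin 1 beta, ran from 5.95 to 7.24 in controls (median 6.94), from 5.79 to 6.62 at 0.05% (median 6.29) and from 6.13 to 6.63 at 1% (median 6.45). Control replicate 3 held the 5.95, and the other 5 controls lay above all 12 quercetin mice. The change was -0.50 ± 0.16 (adjusted p = 0.602), and -0.69 with an adjusted p of 0.0401 without that control. Tnfaip3, a feedback inhibitor of NF-kB, had a difference of -0.63 ± 0.21, and Nfkbiz, a nuclear regulator of NF-kB, of -0.54 ± 0.20.

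Neutrophil markers, 11 of 15 listed being testable and Il1b among them, had 10 lower and a median of -0.33 (-0.36 at 0.05%, -0.10 at 1%). Only 6 of the 11 were lower at both doses, and without control replicate 4 the median was -0.08. Their mean in each mouse ran from -0.81 to 1.15 in controls, -1.13 to 0.16 at 0.05% and -0.52 to 0.59 at 1%. In bulk liver, fewer cells of a type and less RNA per cell cannot be told apart. The part of neutrophils in the inflammatory result was not tested. Acute phase genes were split by dose, with medians of -0.25 at 0.05% and 0.05 at 1%, and none was under 0.05. Interferon-induced genes had 22 lower of 35 and none under 0.05.

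Complement and coagulation genes, mostly secreted by hepatocytes, had 29 lower of 35 with a median of -0.08. C1qa, C1qb and C1qc in this list are also in the Kupffer cell list. Masp1, a protease of the lectin pathway, had a difference of -0.36 ± 0.11 (adjusted p = 0.591), while its 4 other probe sets gave -0.01, -0.10, 0.00 and -0.14. Serpind1, heparin cofactor II, had a difference of -0.16 ± 0.07. Hepatocyte markers were lower in 13 of 13, with a median of -0.09 (-0.07 at 0.05%, -0.10 at 1%), and of -0.03 after quantile normalization. In each mouse their mean ran from -0.15 to 0.10 in controls, from -0.29 to 0.17 at 0.05% and from -0.45 to -0.08 at 1%. At 0.05%, 2 of 6 mice lay above every control and 3 below, and at 1%, 4 of 6 lay below. Their part in the lower sets of liver enzymes was not tested.

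Sex-biased liver genes differed in opposite directions. Of 18 male-biased genes, 17 were lower with a median of -0.17, 10 of them at both doses, and of 14 female-biased genes, 12 were higher with a median of 0.19, 10 of them at both doses. Without 0.05% replicate 5 the male-biased median was -0.06. Moxd1 held the greatest size of all tested genes that were lower, -3.18 ± 1.26 (adjusted p = 0.723), but its controls ran from 4.09 to 11.51. Cyp39a1, an oxysterol hydroxylase, had a difference of 0.54 ± 0.16 (0.23 at 0.05%, 0.85 at 1%), with all 6 mice at 1% above every control. Fmo2, a flavin monooxygenase, had a difference of 0.37 ± 0.13, and its 3 other probe sets of 0.38, 0.35 and 0.28. Of the 4 female-biased genes under 0.05, Cyp4a14 and Acot3 are also in the PPARA set.

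Control replicate 3 lay at the far end for both sets, at -0.83 for male-biased genes where the other controls were at 0.08 to 0.24, and at 1.21 for female-biased genes where the others were at -0.47 to -0.11. Without it, 7 female-biased genes were under 0.05 in place of 4, and the medians were -0.25 for male-biased and 0.44 for female-biased genes.

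Endothelial markers were higher in 18 of 20, with a median of 0.10 (0.18 at 0.05%, 0.05 at 1%) and 4 under 0.05: Clec4g, Egfl7, Vwf and Kdr. Their mean in each mouse ran from -0.14 to 0.08 in controls, from 0.04 to 0.24 at 0.05% and from -0.05 to 0.12 at 1%, and 4 of 6 mice at 0.05% lay above every control. Clec4g, a lectin of sinusoidal endothelium, had a difference of 0.26 ± 0.09, with all 12 quercetin mice above the control mean. Stellate cell markers had 12 of 19 higher (median 0.06), Kupffer cell markers 4 of 14 (-0.02) and lymphocyte markers 6 of 11 (0.02). The thinly filled lists gave 4 of 6 for cholangiocytes (0.15), 2 of 4 for red cells (-0.03) and 0 of 5 for pancreatic acinar cells (-0.18). The part of these cell types in the changes of single genes, Tead1 included, was not tested.

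**Figure D5:**
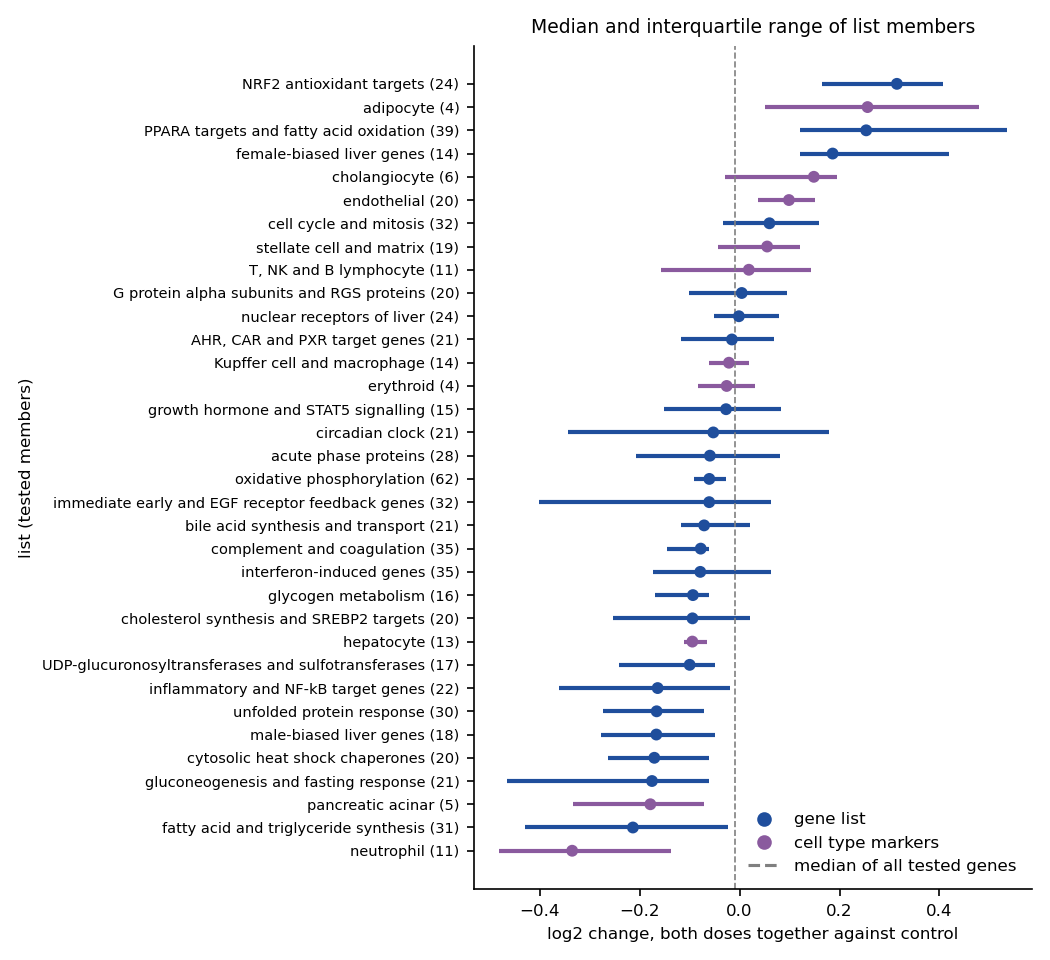
Median (point) and interquartile range (line) of the log2 change for both doses together over the tested members of each gene set (blue) and cell type marker list (purple), with the number of members in brackets and the median of all genes as a dashed line at -0.01. NRF2 targets lie furthest to the right at 0.31 and neutrophil markers furthest to the left at -0.33, or at -0.08 without control replicate 4.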

How the data were processed

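Liver RNA of 18 mice was measured on Affymetrix arrays, and the deposited values are linear intensity, 1 signal per probe set and array. Which signal software and scaling produced them is not given in the sources used here. Of 45101 probe sets, 64 are controls, 34945 carry 1 gene symbol, 932 several and 9160 none, and only those with 1 entered the gene tests. Deposited intensity was turned to log2 after adding 16. Each gene took its probe set with the highest mean, genes above log2 4.69 (the 40th percentile of non-control probe sets) were kept, and every array was shifted to a common median over these 12885 genes.

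limma 3.58.1 in R 4.3.3 fitted 3 diet means (lmFit, eBayes), with 15 residual degrees of freedom and a median residual SD of 0.231. The contrast was the mean of both doses minus control, with Benjamini-Hochberg adjustment over all genes and a two-sided threshold of 0.05. The number of arrays limits the precision, at a median SE of 0.113. The pipeline was tested on simulated data.

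Named genes all had the same sign at both doses, apart from 30 preset genes, of which 29 were tested. They were the 12 higher and 12 lower genes with the smallest p, since fewer than 10 genes were called, up to 3 members of each of 24 lists with an unadjusted p under 0.05, and the preset genes. Members of lists under 0.05 beyond these were named to complete a count of a list after their values were seen. The members, lists and rules were chosen with earlier results of these data known.

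Alternatives were values as deposited, quantile normalization, another median, other added values and filters, the mean of probe sets, trend and robust eBayes, array weights, 1 mean for all quercetin arrays, the replicate number as a block and leaving out each array. Results for each dose under these settings, every probe set on its own, and the lists without 1% replicate 1 or control replicate 3 were added after seeing the data. Replicate numbers of different diets did not pair mice: of 18 same-numbered pairs, 3 had deviations correlated over 0.1.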

Additional observations from a re-analysis of the deposited data

Results flagged for a closer look

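Each value here lay so far from the other 5 mice of its diet that its gap to the nearest of them exceeded the share of the group's range that Dixon's 95% critical value for 6 values allows. Chance alone does this in about 5 of 100 groups. It happened in 14 of 261 groups of gene values and in 10 of 102 groups of list means.

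Mouse 1 at 1% quercetin supplied many of them. Its Hmox1 was at 10.95 where the others were at 7.20 to 7.64, its Pck1 at 9.997 (others 12.19 to 12.54) and its Gadd45b at 8.42 (others 5.67 to 6.60). Net1 was at 8.56 (others 7.66 to 7.93), Ap3m1 at 8.45 (others 8.70 to 8.84) and Rgs1, a regulator of G protein signalling, at 6.45 (others 5.51 to 5.72). The same mouse had list means of 1.28 for NRF2 targets (others 0.06 to 0.32), 1.499 for adipocyte markers (others -0.11 to 0.35) and 0.45 for cholangiocyte markers (others -0.08 to 0.09).

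Control mouse 3 had Il1b at 5.95 (others 6.92 to 7.24) and Cyp2b10, a CAR target, at 6.25 (others 4.09 to 4.82). Its list means were 0.73 for PPARA targets (others -0.26 to -0.04), -0.83 for male-biased genes (others 0.08 to 0.24) and 1.21 for female-biased genes (others -0.47 to -0.11).

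Errfi1 was low in mouse 4 of each quercetin diet, at 11.81 at 0.05% (others 12.48 to 12.86) and 12.59 at 1% (others 12.93 to 13.04). Mouse 4 at 0.05% also had Gadd45b at 4.52 (others 6.37 to 7.01). At 0.05%, Acot1 was at 7.38 in mouse 2 (others 8.84 to 9.54) and Sult1d1 at 11.30 in mouse 3 (others 10.54 to 10.80). Srebf1 was at 8.52 in mouse 3 at 1% (others 9.26 to 9.67). The clock list stood apart in 1 mouse of each diet, at 0.44 in control mouse 2 (others -0.22 to 0.02), -0.38 in mouse 2 at 0.05% (others -0.11 to -0.01) and -0.51 in mouse 4 at 1% (others -0.13 to -0.04). Erythroid markers were at -0.41 in control mouse 6 (others 0.01 to 0.24).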

How the results depend on the processing

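The count of called genes, 1 for both doses together, was 0 on values as deposited, with the median of all probe sets, without a filter and with the mean of probe sets. It was 2 when every probe set was tested on its own, and 0 to 4 with 1 array left out. Same-numbered mice of different diets had no steady correlation. With the replicate number as a block the count was 0 (Tead1 at 0.54, adjusted p 0.138). Osgin1, at 1.21 and an adjusted p of 0.0374, was then the only gene called at 1%. The 842 genes under 0.05 with the same sign at both doses became 464 as deposited, with 592 to 997 when 1 array was left out. Higher genes made up 52.3% of them after quantile normalization and 62.1% with a filter at the 60th percentile, against 46.2%.

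For 1% against control the count of 1 was 0 on values as deposited, with the median of all probe sets, without a filter and with the mean of probe sets, and 0 to 3 with 1 array left out. It was 0 without control 1, 2, 4, 5 or 6 or 1% mouse 2 or 3, 3 without control 3 (Frat1 and Gna14 added), and 2 without 1% mouse 1 (Zdhhc2 added) or 6 (Gna14 added). The counts for 0.05% against control and for 1% against 0.05% were 0 to 1, the 1 being Resf1 without 0.05% mouse 1 in both, and without 1% mouse 5 in the latter.

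Over 87 named genes and 30 settings, 2559 of 2594 values kept direction and side of the threshold, and 6 genes had a turn of sign. Slco1b2 was 0.0572 with the mean of probe sets, where Cyp7a1 was 0.0284. Cyp7a1 was 0.00503 with the 60th percentile filter, and -0.14 to 0.24 with 1 array left out. Cyp1a1 was 0.00103 with 1 added in place of 16, 0.0127 with array weights and -0.13 to 0.0725 with 1 array left out. With 1 array left out Cyp1a2 was -0.0340 to 0.13 and Cyp3a11 -0.0238 to 0.0847. Sod1 was 0.0435 after quantile normalization. With 1 array left out, and with no turn of sign, Dgat2 was -0.33 to -0.18, Ppp1r3b -0.83 to -0.41, Sult5a1 -0.46 to -0.25, Serpind1 -0.20 to -0.10, Ccna2 0.20 to 0.48 and Sirt1 0.06 to 0.12. List medians that turned sign in some settings were those of AHR, CAR and PXR targets, growth hormone signalling, G protein subunits, nuclear receptors, Kupffer cells, lymphocytes and erythroid cells. The cause of these differences was not tested.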

Other observations

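Cfap298, a gene of motile cilia, has 3 tested probe sets that differ from each other, and it was named after its values were seen. Its dimmest probe set gave a change of -0.91 ± 0.11 and passed when all 27022 probe sets were tested on their own (limma, adjusted p = 0.00257). Deposited intensity there was 26.1 to 49.0 in controls, 6.39 to 20.6 at 0.05% and 3.35 to 13 at 1%, so all 12 quercetin mice lay below all 6 controls, at signals near the bottom of the array. The brightest probe set, which stands for the gene elsewhere in these results, gave -0.04 ± 0.10 (adjusted p = 0.983), and the third 0.33 ± 0.20. Tead1 was the other probe set that passed (adjusted p = 0.0259), and 6 of the 27022 had all quercetin mice beyond all controls.

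Cell cycle genes had 21 higher and 11 lower of 32 with a median of 0.06, and the lower dose held most of it (0.13 at 0.05%, -0.01 at 1%). Kif20a, a mitotic kinesin, was above every control in 6 of 6 mice at 0.05% and 2 of 6 at 1%, with a difference of 0.39 ± 0.14 (adjusted p = 0.712). Ccna2, cyclin A2, had a difference of 0.38 ± 0.18 (adjusted p = 0.756). Among G protein alpha subunits and RGS proteins, 11 were higher and 9 lower of 20. Gnai1, an inhibitory alpha subunit, had a change of 0.48 ± 0.18 and its 2 other probe sets gave 0.33 and 0.21, all opposite in sign to Gna14.

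Nuclear receptors of liver divided evenly, 12 higher and 12 lower of 24. Nr2f1 had a change of 0.19 ± 0.08 and was higher at the lower dose (0.30 at 0.05%, 0.09 at 1%). Growth hormone and STAT5 genes had 7 higher and 8 lower of 15, with Igfals, the carrier subunit of circulating IGF1, at -0.27 ± 0.12 (adjusted p = 0.754). Tiparp, a target of AHR, had a change of -0.37 ± 0.14 and the same sign in both other probe sets. Cyp1a1, which was dim, lay near control. Sirt1, the deacetylase often studied with polyphenols, had a change of 0.10 ± 0.08 (adjusted p = 0.885).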
